A study of Mus musculus with 12 samples.

Results

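The genes described here are 10 rows of a table of 23479 genes: 3 cytokine receptor chains (Il6ra, Il6st and Il10ra), 3 Janus kinases (Jak1, Jak2 and Tyk2), the transcription factor Stat3, and 3 genes known as its feedback or target genes (Socs1, Socs3 and Bcl3). They were chosen by name for their place in the IL-6 and IL-10 receptor pathway; the rule uses no measured value, but earlier results of these data were known when it was set. The table covers 12 libraries of total RNA from myeloid-derived suppressor cells (MDSC) of the spleens of C57BL/6 mice, in 4 groups of 3. All mice carried established B16 tumours, a melanoma line, and the groups are M-MDSC (monocytic cells) from mice given cyclophosphamide and fludarabine (LD), M-MDSC from untreated mice (Ctrl), PMN-MDSC (the granulocytic population) from LD mice and PMN-MDSC from Ctrl mice. Spleens were taken 7 days after treatment and the cells were isolated by flow cytometry, so no group comes from mice without tumours. The labels do not say that the 3 replicates of a group are separate animals, so p-values reflect only how far these samples scatter, and that scatter may be technical.

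Cyclophosphamide and fludarabine are DNA-damaging drugs that deplete lymphocytes. IL-6 binds its own receptor chain, encoded by Il6ra, and the complex signals through gp130, encoded by Il6st, whose cytoplasmic tail carries Janus kinases that phosphorylate STAT3. IL-10 reaches the same transcription factor through its own receptor, with JAK1 and TYK2. STAT3 switches on Socs3, whose protein blocks gp130 and the G-CSF receptor, and STAT3 signalling is known in tumour-bearing mice for the expansion and suppressive activity of MDSC.

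In PMN-MDSC, RNA for the receptor chain Il10ra and for the inhibitor Socs3 was lower in LD mice than in Ctrl mice, 1.75-fold for Il10ra and 2.6-fold for Socs3, which makes 2 of 10 genes called lower where 8.51% of all genes tested were lower and 15.7% were called in either direction. In M-MDSC the only one of the 10 genes that passed the test was the inhibitor Socs1, 2.82-fold higher in LD mice, where 2.54% of all genes were called higher and 3.01% in either direction. The Socs1 call rests on 11 to 85 reads per M-MDSC library and was lost in 6 of 12 refits that each omitted a library. Il6st, lower in LD M-MDSC, did not pass in this fit of all 4 groups but passed on the M-MDSC libraries alone, as given below. For the kinases Jak1 and Jak2 the LD and Ctrl libraries overlapped in both populations. The 2 populations differed in all 10 genes, as did 74.8% of all genes in LD mice (38.8% higher and 36.1% lower in M-MDSC) and 75.6% in Ctrl mice (38.8% higher and 36.8% lower). Il6st, Il10ra and Tyk2 were higher in M-MDSC, and the other 7 genes were higher in PMN-MDSC, except that the small difference in Il6ra lost its call under another scaling, as given below.

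Values are normalized counts, that is reads divided by 1 size factor per library. Differences are log2 differences from limma, tested across 11122 genes on log2(normalized count + 1), and a gene is called when its Benjamini-Hochberg adjusted p is under 0.05. Overlap of LD and Ctrl libraries is stated for single genes, and the share of all genes without overlap was not computed. Libraries held 8906045 to 16242926 reads in genes. Marker sums matched the labels: 8 monocyte genes summed to 68163 to 84925 in M-MDSC of LD mice and 100735 to 119905 in M-MDSC of Ctrl mice, against 8259.5 to 10385 in PMN-MDSC of LD mice and 10024 to 12484 in PMN-MDSC of Ctrl mice. All 8 were called higher in M-MDSC of Ctrl mice and 7 in M-MDSC of LD mice. In LD mice Ly6c2 overlapped, with 1994 to 2428 in M-MDSC and 1758 to 2188 in PMN-MDSC. The 7 neutrophil genes found in the table summed to 9844 to 39065 in M-MDSC of LD mice and 6371 to 7225 in M-MDSC of Ctrl mice, against 528390.0 to 620092 in PMN-MDSC of LD mice and 367415 to 399152 in PMN-MDSC of Ctrl mice. Genes of neutrophil precursors summed to 10475 to 50302 in M-MDSC of LD mice and 1754 to 2219 in those of Ctrl mice, and to 185721 to 260012 in PMN-MDSC of LD mice and 83964 to 97966 in those of Ctrl mice. Of these 6 genes, Elane, Mpo and Prtn3 were higher in M-MDSC, and Ltf, Ngp and Camp, which carry the sums, were higher in PMN-MDSC. The LD libraries numbered 001 stood apart in both populations, with sums of 4 cell cycle genes of 11713 in M-MDSC (3438 and 4727 in the other LD libraries, 1048 to 1274 in Ctrl) and 9157 in PMN-MDSC (1796 and 2772 in the other LD libraries, 2381 to 3122 in Ctrl). The 4 macrophage genes found in the table summed to 217 to 314 in M-MDSC of LD mice and 49.4 to 109 in those of Ctrl mice, without overlap, and to 150.0 to 335 in PMN-MDSC of LD mice and 150.0 to 232 in those of Ctrl mice. In M-MDSC 2 of these 4 genes were called higher with treatment, C1qa by 2.04 and Vcam1 by 1.79 on the log2 scale (limma adjusted p = 0.0396 and 0.0451). Summed markers of B cells, T cells and erythroid cells reached at most 62.0, 150.0 and 18.9 in LD libraries and 128, 46.6 and 7.98 in Ctrl libraries, with Hba-a1 and Hbb-bs at 0 in all of them. Plasma cell sums were 63.0 to 88.3 in LD and 129 to 399 in Ctrl M-MDSC, and 5.61 to 36.5 in LD and 25.5 to 50.1 in Ctrl PMN-MDSC. Of 2 plasma cell genes tested, 1 was called lower with treatment in each population. The 1 B cell gene and the 1 NK cell gene tested were called lower in PMN-MDSC, by 2.51 and 2.85 on the log2 scale. In PMN-MDSC 8.51% of all genes tested were lower. Neither gene was called in M-MDSC. Sums for NK cells, platelets, dendritic cells and stroma reached at most 109, 83.8, 382 and 220 in LD libraries. In Ctrl libraries they reached 100, 105, 395 and 208. In bulk RNA such as this, fewer cells of a type and less RNA per cell cannot be told apart.

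**Figure D1:**
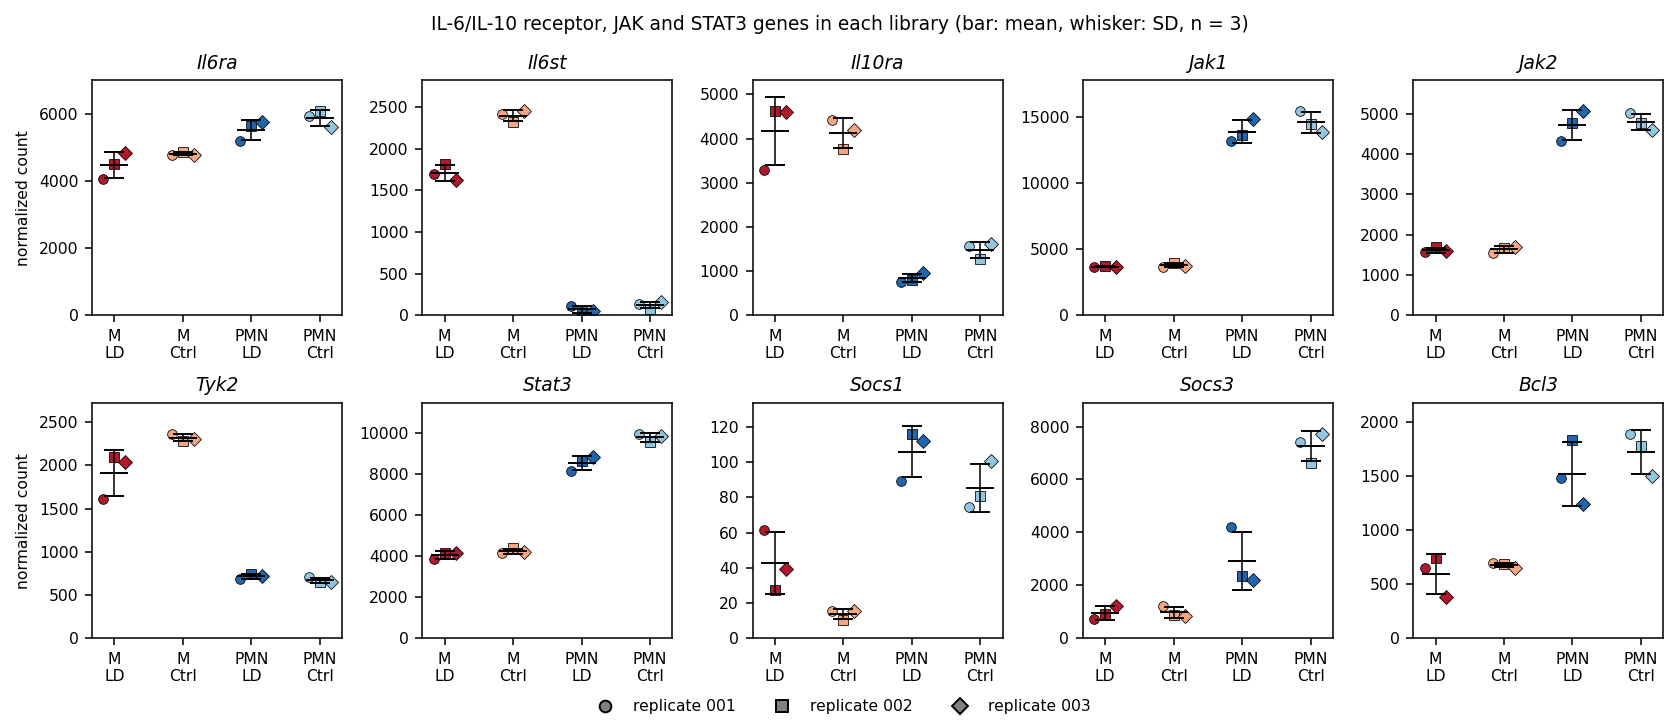
Normalized counts (linear axes from 0) of the 10 genes in each of the 12 libraries, with M-MDSC in red (LD) and orange (Ctrl) and PMN-MDSC in dark (LD) and pale (Ctrl) blue, LD left of Ctrl in each population, the long bar at the mean, the whiskers at 1 SD (n = 3) and the marker shape giving the replicate number. Il6st, Il10ra and Tyk2 lie higher in M-MDSC than in PMN-MDSC and the other genes lie higher in PMN-MDSC, except that Il6ra showed no difference with upper-quartile scaling. The LD and Ctrl points separate in PMN-MDSC for Il10ra, Stat3 and Socs3 and in M-MDSC for Il6st, Tyk2 and Socs1. Of these, Stat3, Il6st and Tyk2 were not called, and the share of all genes that separate was not computed.

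Among the receptor chains, Il6ra, the IL-6 binding chain (chr3:89869324-89913196, minus strand, in RefSeq coordinates of GRCm38.p6 as for all genes here), differed least between the populations among the 10 genes. It measured 4065, 4505 and 4838 in LD M-MDSC and 4786, 4877 and 4794 in Ctrl M-MDSC. PMN-MDSC held 5189.7, 5641 and 5759 in LD mice and 5940.1, 6094 and 5611 in Ctrl mice. The LD and Ctrl libraries overlapped in both populations, and the LD minus Ctrl differences were -0.11 ± 0.08 in M-MDSC and -0.09 ± 0.08 in PMN-MDSC (log2, SE), with limma adjusted p of 0.704 and 0.507. Between populations the difference was -0.31 in LD mice and -0.29 in Ctrl mice (M-MDSC minus PMN-MDSC, log2; limma adjusted p = 0.004 and 0.00656). That direction depends on the scaling, since upper-quartile scaling moved the median of all genes by 0.32 and 0.29 in these comparisons and put Il6ra at 0.01 in both, with limma adjusted p of 0.89 and 0.934. Genes whose pattern over the 12 libraries was nearest to Il6ra, by root mean square difference of centred log2 values among 7404 genes, were Tnpo1 (0.0590), Rxrb (0.0638) and Snrnp200 (0.0676).

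Il6st encodes gp130, the signalling chain that the receptors for IL-6, LIF and oncostatin M share (chr13:112464070-112506860, plus strand). Its RNA was abundant in M-MDSC, with 1691, 1809 and 1624 in LD mice and 2409, 2323 and 2450.3 in Ctrl mice. In PMN-MDSC it was 118, 48.5 and 51.9 in LD mice and 135, 80.0 and 160 in Ctrl mice, which rests on 33 to 87 reads per LD library and 91 to 132 reads per Ctrl library. No PMN-MDSC library came near any M-MDSC library. The M-MDSC level was 25.2-fold that of PMN-MDSC in LD mice and 19.8-fold in Ctrl mice (log2 4.66 ± 0.28 and 4.31 ± 0.28, SE; limma adjusted p = 1.91e-09 and 4.09e-09). All 3 LD libraries of M-MDSC lay under all 3 Ctrl libraries. The difference of -0.49 ± 0.28 did not pass the test (95% confidence interval -1.10 to 0.12, limma adjusted p = 0.537). That fit pools the spread over the 4 groups, so the interval also carries the larger relative spread of the low PMN-MDSC values. Fitted on the M-MDSC libraries alone, the difference passed, with a limma adjusted p of 0.0161. In PMN-MDSC the LD and Ctrl libraries overlapped, because the LD library 001 measured 118, and the difference of -0.83 ± 0.28 had a limma adjusted p of 0.0606. That p was 0.0016 without the LD library 001 of PMN-MDSC, with a difference of -1.24, and 0.0246 without the Ctrl library 002 of PMN-MDSC. The monocyte marker F13a1 measured 339, 162 and 60.3 in LD PMN-MDSC and 295, 181 and 346 in Ctrl PMN-MDSC. Its highest libraries, LD 001 and Ctrl 003, were those of Il6st. Fn1, Ccr2, Irf8, Klf4 and Vcan also had these libraries highest, and Csf1r and Ly6c2 did not. The part of monocytic cells in the Il6st values of PMN-MDSC was not tested.

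The 2 chains of the IL-6 receptor therefore stood in very different proportions in the 2 populations. Per kilobase of merged exons, Il6ra was 3.09, 3.20 and 3.83 times Il6st in LD M-MDSC and 2.55, 2.70 and 2.51 times in Ctrl M-MDSC. In PMN-MDSC the ratio was 56.6, 149 and 143 in LD mice and 56.7, 97.9 and 45.1 in Ctrl mice. Every PMN-MDSC ratio was above every M-MDSC ratio, and the LD ratios were above the Ctrl ratios in M-MDSC but overlapped them in PMN-MDSC. The PMN-MDSC ratios rest on the few Il6st reads given above, and the part of monocytic cells in them was not tested.

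Il10ra, the ligand-binding chain of the IL-10 receptor (chr9:45253837-45269149, minus strand), was the one of these 3 receptor chains that was called with treatment. PMN-MDSC held 766, 812 and 954 in LD mice and 1563, 1268 and 1607 in Ctrl mice. Every LD library of PMN-MDSC lay under every Ctrl library, and Il10ra fell by 0.81 ± 0.14 on the log2 scale (95% confidence interval -1.10 to -0.51; limma adjusted p = 0.00209). In M-MDSC it measured 3289, 4626 and 4611 in LD mice and 4416, 3759.5 and 4197 in Ctrl mice, where the groups overlapped and the difference was 0.00 ± 0.14 (limma adjusted p = 1). The difference between these 2 treatment changes, M-MDSC minus PMN-MDSC, was 0.81 ± 0.20 (limma adjusted p = 0.0466). This last call sits close to the threshold and was lost in 8 of 12 refits that each omitted a library, namely the LD M-MDSC libraries 002 and 003 (adjusted p = 0.0908 and 0.107), each Ctrl M-MDSC library (0.0773, 0.121 and 0.0853 without 001, 002 and 003), the LD PMN-MDSC library 002 (0.0888) and the Ctrl PMN-MDSC libraries 001 and 003 (0.0916 and 0.11). The fall within PMN-MDSC kept its call in all 12 refits, with adjusted p between 0.000459 and 0.0142.

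Il10ra was higher in M-MDSC, 4.91-fold in LD mice and 2.8-fold in Ctrl mice (limma adjusted p = 1.66e-09 and 1.82e-07). Its partner chain Il10rb ran the other way, with 804 ± 69.8 in M-MDSC and 1882 ± 193 in PMN-MDSC of LD mice, and 692 ± 58.6 in M-MDSC and 2161 ± 107 in PMN-MDSC of Ctrl mice (SD, n = 3 each). Per kilobase, Il10ra was 5.62 ± 0.598 times Il10rb in M-MDSC of LD mice and 6.54 ± 1.01 times in M-MDSC of Ctrl mice. The same ratio was 0.488 ± 0.0125 in PMN-MDSC of LD mice and 0.747 ± 0.105 in PMN-MDSC of Ctrl mice (SD, n = 3 each), so Il10ra was the more abundant chain per kilobase in M-MDSC and the less abundant one in PMN-MDSC.

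**Figure D2:**
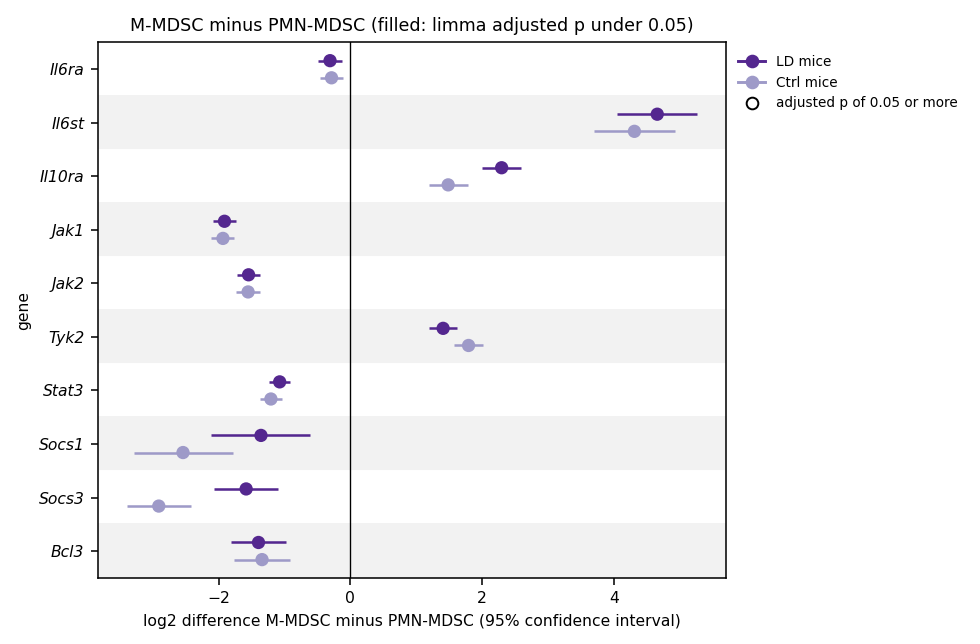
M-MDSC minus PMN-MDSC differences of the 10 genes (log2, limma, points with 95% confidence intervals), in LD mice (dark) and Ctrl mice (pale); filled points have an adjusted p under 0.05. Il6st stands farthest to the right at 4.66 and 4.31, with Il10ra and Tyk2 also right of 0; the remaining genes lie left of 0, of which Il6ra moved to 0.01 in both comparisons with upper-quartile scaling.

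The Janus kinases dock on these receptor tails and start the signal. Jak1 (chr4:101151974-101265282, minus strand) is used by the IL-6, IL-10 and interferon receptors. It measured 3672, 3717 and 3667 in LD M-MDSC and 3692, 3968 and 3767 in Ctrl M-MDSC, against 13178, 13620.4 and 14832 in LD PMN-MDSC and 15443, 14453 and 13815 in Ctrl PMN-MDSC. The populations were far apart and the treatments overlapped within each. Jak1 was 3.76-fold lower in M-MDSC than in PMN-MDSC of LD mice and 3.82-fold lower in Ctrl mice (limma adjusted p = 5.18e-11 and 3.53e-11). The LD minus Ctrl difference was -0.05 in M-MDSC (95% confidence interval -0.22 to 0.13) and -0.07 in PMN-MDSC (-0.24 to 0.10), with limma adjusted p of 0.93 and 0.593.

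Jak2 (chr19:29251803-29313095, plus strand), the kinase of the growth hormone, erythropoietin and GM-CSF receptors that also binds gp130, had the same order of groups. It measured 1559.7, 1685 and 1594 in LD M-MDSC and 1545, 1668 and 1686 in Ctrl M-MDSC, against 4323, 4766 and 5064 in LD PMN-MDSC and 5011, 4761 and 4602 in Ctrl PMN-MDSC. M-MDSC were lower by 2.92-fold in LD mice and 2.93-fold in Ctrl mice (limma adjusted p = 5.12e-10 and 4.23e-10). The LD minus Ctrl difference was -0.02 in both populations, with confidence intervals of -0.20 to 0.16 in M-MDSC and -0.20 to 0.15 in PMN-MDSC and limma adjusted p of 0.984 and 0.872.

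Tyk2 (chr9:21104068-21131393, minus strand), the kinase that pairs with JAK1 on the IL-10 and type I interferon receptors, was the one of these 3 kinases that was higher in M-MDSC. It measured 1611, 2096 and 2038 in LD M-MDSC and 2365, 2287 and 2302 in Ctrl M-MDSC. PMN-MDSC held 686, 747 and 719 in LD mice and 703, 648 and 656 in Ctrl mice. All 3 LD libraries of M-MDSC lay under the 3 Ctrl libraries, while the PMN-MDSC groups overlapped. The M-MDSC difference of -0.28 ± 0.10 did not pass the test (limma adjusted p = 0.179), nor did its difference from PMN-MDSC (-0.39 ± 0.14; limma adjusted p = 0.173). Tyk2 was 2.65-fold higher in M-MDSC of LD mice and 3.46-fold higher in M-MDSC of Ctrl mice (limma adjusted p = 1.09e-08 and 7.67e-10). A total of 554 bases of its exons overlap exons of 1700084C06Rik on the opposite strand, and without a stated strand protocol reads of the 2 genes cannot be told apart there. Shorter overlaps of this kind are 242 bases for Il6ra with Gm42809, 161 bases for Bcl3 with Gm16175 and 4 bases for Jak1 with Raver2.

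Summed per kilobase, the JAK family (these 3 kinases and Jak3) reached 1213 ± 40.3 in M-MDSC and 3109 ± 160 in PMN-MDSC of LD mice, and 1291 ± 18.1 in M-MDSC and 3277 ± 138 in PMN-MDSC of Ctrl mice (SD, n = 3 each). The share of Tyk2 in that sum was 20.0%, 24.4% and 24.4% in LD M-MDSC and 27.1%, 25.7% and 25.7% in Ctrl M-MDSC. In PMN-MDSC it was 3.35%, 3.57% and 3.18% in LD mice and 2.99%, 2.90% and 3.03% in Ctrl mice. Jak1 made up 42.1% ± 1.18 of the sum in M-MDSC and 61.7% ± 0.653 in PMN-MDSC of LD mice (SD, n = 3 each), with nearly the same shares in Ctrl mice, 40.8% ± 1.32 and 61.5% ± 0.869. The kinase RNA of M-MDSC was thus spread over 3 main kinases, and that of PMN-MDSC was mostly Jak1 and Jak2.

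**Figure D3:**
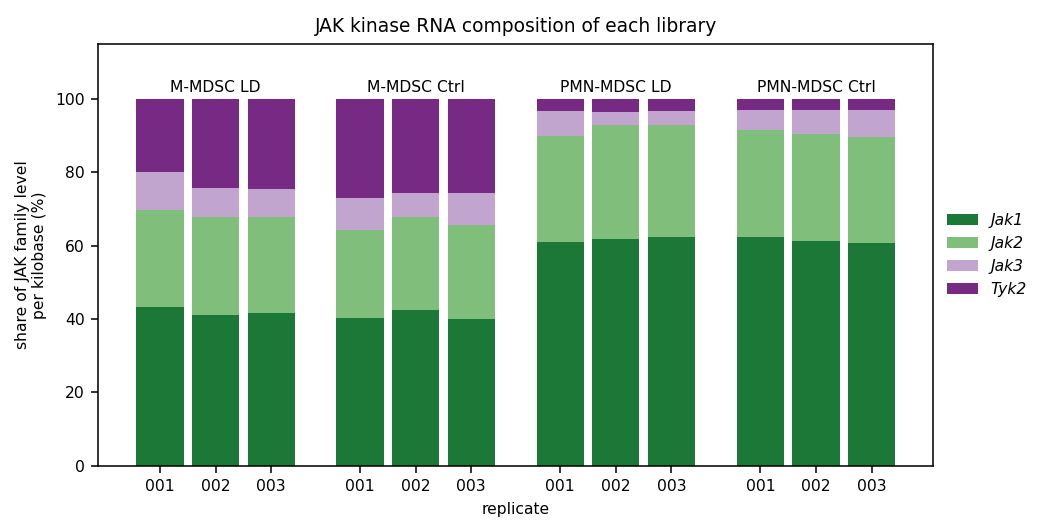
Stacked bars of the share (%) of Jak1, Jak2, Jak3 and Tyk2 in the summed JAK family level per kilobase of merged exons, 1 bar per library, 3 libraries per group. Tyk2, the top segment, takes 20.0% to 27.1% in M-MDSC and 2.90% to 3.57% in PMN-MDSC.

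Stat3, the transcription factor itself (chr11:100886806-100939594, minus strand), measured 3862, 4159 and 4180.0 in LD M-MDSC and 4178, 4384 and 4188 in Ctrl M-MDSC. In PMN-MDSC it was 8172, 8646 and 8859.7 in LD mice and 9985, 9565 and 9874 in Ctrl mice. The M-MDSC groups overlapped, with a difference of -0.06 ± 0.08 (limma adjusted p = 0.862). In PMN-MDSC every LD library lay under every Ctrl library, and the difference of -0.20 ± 0.08 had a limma adjusted p of 0.0929. That value crossed the threshold with TMM scaling (0.0367), with upper-quartile scaling (0.0443) and with DESeq2 on the recovered reads (0.0296). Stat3 was 2.1-fold lower in M-MDSC than in PMN-MDSC of LD mice and 2.31-fold lower in Ctrl mice (limma adjusted p = 8.81e-09 and 2.39e-09). The genes nearest to its pattern over the 12 libraries were Nckap1l (root mean square difference of 0.0441 in centred log2), Ddx5 (0.0521) and Rbms1 (0.0636). Exons of Stat3 and Stat5a overlap by 72 bases on opposite strands.

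Socs3, the STAT3-induced inhibitor of gp130 (chr11:117966079-117970336, minus strand), changed most of the 10 genes in PMN-MDSC. It is a gene that STAT3 is known to bind, and a script searched the 250 bases before each RefSeq gene start (GRCm38.p6, 32851 starts) for TTCNNNGAA, a STAT-type palindrome that reads the same on both strands. Of all starts, 7.02% had the motif, and 8.13% of gene symbols had it at 1 start or more. Of the 9 genes described here with an entry there, 1 had it, Socs3. Matches can overlap each other, and a match describes letters, not a bound site. Of 15 matched genes of a list of STAT3 and IL-10 response genes described further on, 3 had it at any start, namely Sbno2, Zfp36 and Icam1. The RNA of Sbno2 and Zfp36 fell in PMN-MDSC of LD mice, and that of Icam1 differed by -0.19 on the log2 scale (LD minus Ctrl; limma adjusted p = 0.304). Sbno2 is printed beside Socs3 as a gene whose RNA fell and whose window is free of its own annotated exons. Arid5a, Mcl1 and Junb, whose RNA also fell in PMN-MDSC of LD mice, had no motif in their windows, and Il10ra had no entry. The Socs3 start in the promoter table, at 117969366, lies inside the gene's span, so the printed stretch precedes an internal start. Sbno2 has 3 starts in the table, 2 of them with the motif, and the one printed, at 80101187, is also an internal start. The Socs3 stretch is chr11:117969452-117969616 and the Sbno2 stretch chr10:80101188-80101437, both on the minus strand, with the motif in capitals at 154 to 146 bases before the Socs3 start and 24 to 16 bases before the Sbno2 start. The Socs3 stretch was cut to the first 165 of the 250 bases, where an annotated exon of the gene begins. It therefore ends before the start used, while the Sbno2 stretch runs up to its start.
Socs3: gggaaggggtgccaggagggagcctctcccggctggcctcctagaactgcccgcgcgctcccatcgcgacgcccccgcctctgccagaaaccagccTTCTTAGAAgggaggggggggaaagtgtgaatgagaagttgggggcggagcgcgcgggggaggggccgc
Sbno2: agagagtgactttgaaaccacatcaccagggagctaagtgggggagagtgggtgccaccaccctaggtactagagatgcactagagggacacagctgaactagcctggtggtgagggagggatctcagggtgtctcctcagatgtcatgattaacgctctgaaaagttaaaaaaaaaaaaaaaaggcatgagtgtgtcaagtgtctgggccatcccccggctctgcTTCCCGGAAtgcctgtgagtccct

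In PMN-MDSC, Socs3 measured 4196, 2368 and 2188 in LD mice and 7425, 6634 and 7726 in Ctrl mice. The LD library 001, the one with the high cell cycle sum, was the highest of its group and still lay under every Ctrl library. Socs3 fell by 1.38 ± 0.23 on the log2 scale (95% confidence interval -1.86 to -0.89; limma adjusted p = 0.0017), and by 1.67 without that library. The call held in each of 12 refits that omitted a library, with adjusted p between 0.000122 and 0.0113. Neutrophil precursor genes were higher in the same LD libraries, as given above, and their part in the lower Socs3 and Il10ra was not tested.

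In M-MDSC, Socs3 measured 711, 924 and 1230.5 in LD mice and 1206, 878 and 848 in Ctrl mice, and the groups overlapped (-0.05 ± 0.23; limma adjusted p = 0.982). The treatment change differed between the populations by 1.33 ± 0.32 (M-MDSC minus PMN-MDSC, log2; limma adjusted p = 0.0482). That call was lost in 10 of these 12 refits, with adjusted p of 0.0735 and 0.106 without LD M-MDSC 002 and 003, 0.0508, 0.121 and 0.102 without Ctrl M-MDSC 001, 002 and 003, 0.0959 and 0.105 without LD PMN-MDSC 002 and 003, and 0.0885, 0.0862 and 0.11 without Ctrl PMN-MDSC 001, 002 and 003. It was also lost with a replicate block (0.0533). Socs3 was 2.99-fold lower in M-MDSC than in PMN-MDSC of LD mice and 7.5-fold lower in Ctrl mice (limma adjusted p = 1.82e-05 and 2.7e-08).

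Relative to Stat3, Socs3 per kilobase was 1.69, 0.903 and 0.814 in LD PMN-MDSC and 2.45, 2.29 and 2.58 in Ctrl PMN-MDSC, with no overlap. In M-MDSC the ratio was 0.606, 0.732 and 0.970 in LD mice and 0.951, 0.660 and 0.667 in Ctrl mice, with overlap. In Ctrl PMN-MDSC Socs3 was the most abundant of the 10 genes per kilobase, 2512 ± 195 normalized counts per kilobase above 2016 ± 114 for Jak1 (SD, n = 3 each), and the libraries of these 2 genes did not overlap. In LD PMN-MDSC Jak1 came first with 1920.1 ± 118, and Socs3 with 1009.0 ± 384 overlapped Jak2 with 938 ± 74.1. In M-MDSC the most abundant gene per kilobase was Il10ra, with 1194 ± 219 in LD mice and 1179 ± 95.5 in Ctrl mice. The genes nearest to Socs3 in pattern over the 12 libraries were Prr5l (root mean square difference of 0.252 in centred log2), Tbc1d15 (0.355) and Syt11 (0.366).

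Socs1, the inhibitor best known for restraining interferon signalling (chr16:10783808-10785536, minus strand), was the scarcest of the 10 genes per kilobase in M-MDSC and moved the other way there. LD M-MDSC held 61.6, 27.2 and 39.4 and Ctrl M-MDSC 15.6, 10.5 and 15.7. These values rest on 85, 32 and 40 reads in LD libraries and 24, 11 and 28 reads in Ctrl libraries. Every LD library lay above every Ctrl library, and Socs1 rose by 1.49 ± 0.35 on the log2 scale (95% confidence interval 0.74 to 2.24; limma adjusted p = 0.0318). The highest library was LD 001, the one with the highest cell cycle, neutrophil precursor and macrophage sums among M-MDSC, and the part of those cells in the higher Socs1 was not tested. Without it the difference was 1.20 and the adjusted p 0.14, and the call was also lost without LD M-MDSC 003 (0.0858), Ctrl M-MDSC 001, 002 or 003 (0.0694, 0.11 and 0.0703) or Ctrl PMN-MDSC 002 (0.0541).

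In PMN-MDSC, Socs1 measured 89.3, 116 and 112 in LD mice and 74.5, 80.9 and 101 in Ctrl mice, with overlap (0.31 ± 0.35; limma adjusted p = 0.586). The treatment change of Socs1 was not shown to differ between the populations (1.18 ± 0.50; limma adjusted p = 0.226). Socs1 was 2.56-fold lower in M-MDSC than in PMN-MDSC of LD mice and 5.82-fold lower in Ctrl mice (limma adjusted p = 0.0028 and 1.2e-05). Socs3 exceeded Socs1 per kilobase 25.7 ± 12.3 times in LD M-MDSC and 72.1 ± 15.7 times in Ctrl M-MDSC, and 29.1 ± 15.7 times in LD PMN-MDSC and 86.7 ± 12.1 times in Ctrl PMN-MDSC (SD, n = 3 each).

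Bcl3, a nuclear member of the IκB family that IL-10 induces in macrophages (chr7:19808462-19822824, minus strand), was called between the populations and was not called with treatment. It measured 647, 742 and 386 in LD M-MDSC and 693, 686 and 653 in Ctrl M-MDSC, against 1481, 1836 and 1244 in LD PMN-MDSC and 1893, 1782 and 1500.4 in Ctrl PMN-MDSC. The LD and Ctrl libraries overlapped in both populations. The treatment differences were -0.25 ± 0.20 in M-MDSC and -0.19 ± 0.20 in PMN-MDSC, with limma adjusted p of 0.737 and 0.544. Bcl3 was 2.63-fold lower in M-MDSC of LD mice and 2.53-fold lower in M-MDSC of Ctrl mice (limma adjusted p = 1.5e-05 and 2.28e-05).

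**Figure D4:**
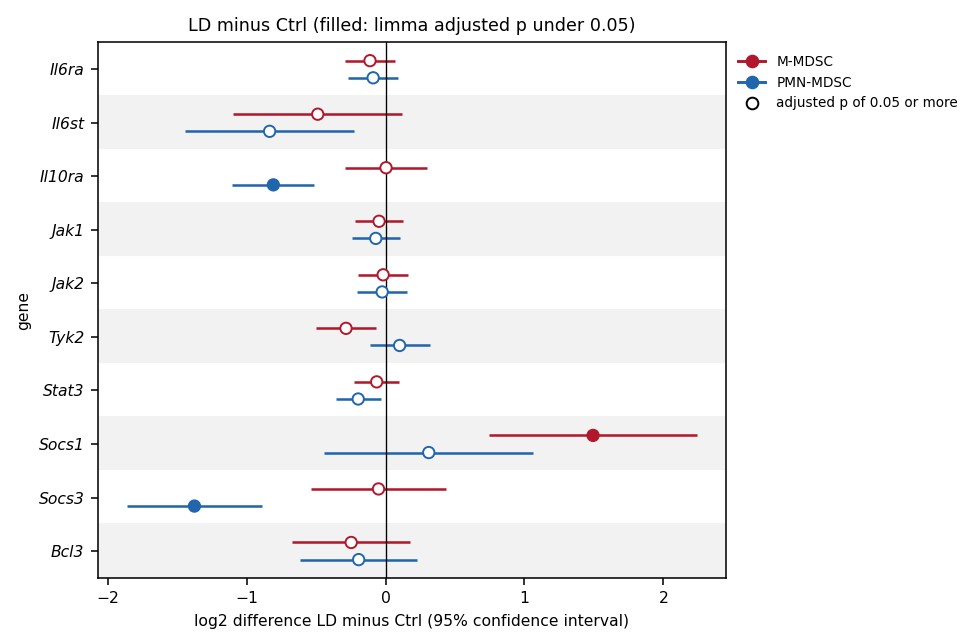
LD minus Ctrl differences of the 10 genes (log2, limma, points with 95% confidence intervals) in M-MDSC (red) and PMN-MDSC (blue); filled points have an adjusted p under 0.05. The filled points are Socs1 in M-MDSC at 1.49, and Il10ra at -0.81 and Socs3 at -1.38 in PMN-MDSC.

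Counted together, 1 of the 10 genes was called between LD and Ctrl M-MDSC (higher), against 3.01% of all 11122 genes tested, and the median difference was -0.06 for the 10 genes and -0.04 for all genes. In PMN-MDSC 2 of the 10 were called (lower), against 15.7% of all genes, with a median of -0.14 for the 10 genes and -0.05 for all genes. For the difference between the treatment changes 2 of the 10 were called, both higher, against 2.25% of all genes called in either direction and 1.18% called higher. Without both LD libraries numbered 001 these counts were 0 in M-MDSC, 3 in PMN-MDSC and 2 for the difference, where 459, 2462 and 773 of all genes were called (4.13%, 22.1% and 6.95%). Between M-MDSC and PMN-MDSC all 10 genes were called, 3 higher and 7 lower, in LD mice (74.8% of all genes) and in Ctrl mice (75.6% of all genes), so calls between populations were the rule in this table. These comparisons share libraries: the change in each population enters the difference of changes, and each group enters a treatment and a population comparison.

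Of 8 ligands of these receptors or, for Csf3, of the G-CSF receptor, 4 passed the minimum mean of 10. None was called between LD and Ctrl in either population by limma, edgeR or DESeq2 (1 in M-MDSC and 2 in PMN-MDSC had an unadjusted limma p under 0.05). Over all genes tested, limma called 3.01% in M-MDSC and 15.7% in PMN-MDSC. Il6, Il10, Il11 and Csf3 were under that minimum, with Il6 and Il10 at 0 in all 6 LD libraries; Ctrl libraries held 0 to 2 reads of Il6 and 0 to 4 reads of Il10. Osm, encoding oncostatin M, a cytokine of the IL-6 family, was a PMN-MDSC gene, with 19.3 ± 7.92 in M-MDSC and 587 ± 28.3 in PMN-MDSC of LD mice, and 10.5 ± 1.56 in M-MDSC and 523 ± 171 in PMN-MDSC of Ctrl mice (SD, n = 3 each). It was 30.7-fold lower in M-MDSC of LD mice and 44.2-fold lower in M-MDSC of Ctrl mice (limma adjusted p = 3.43e-09 and 1.1e-09). Lif, another gp130 ligand, ran the other way at low levels, with 24.1 ± 12.5 in M-MDSC and 0.490 ± 0.849 in PMN-MDSC of LD mice (limma adjusted p = 5.1e-05).

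Of 12 other receptor chains, 10 passed the minimum. None was called by limma in M-MDSC with treatment, where 3.01% of all genes were called (1 had an unadjusted p under 0.05, and edgeR and DESeq2 each called 1). In PMN-MDSC 4 were called, all lower in LD mice, where 8.51% of all genes were lower and 15.7% were called in either direction. Csf3r, the G-CSF receptor and a neutrophil marker, averaged 98751 ± 3031 in LD PMN-MDSC and 160134 ± 8293 in Ctrl PMN-MDSC (log2 -0.70; limma adjusted p = 0.000947). Lifr, the LIF receptor that pairs with gp130, averaged 167 ± 30.1 in LD PMN-MDSC and 349 ± 59.4 in Ctrl PMN-MDSC (SD, n = 3 each; log2 -1.06; limma adjusted p = 0.00188). The interferon receptor chains Ifngr1 and Ifnar1 fell by 0.52 and 0.39 on the log2 scale (limma adjusted p = 0.0103 and 0.00705). The receptor list had a median of -0.27 in PMN-MDSC, beside -0.05 for all genes.

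Of 7 other JAK and STAT genes none was called in M-MDSC with treatment by limma, edgeR or DESeq2 (1 had an unadjusted limma p under 0.05), and Stat5b was called in PMN-MDSC, with 5515 ± 321 in LD mice and 6698 ± 322 in Ctrl mice (SD, n = 3 each; log2 -0.28; limma adjusted p = 0.0261). The Stat5b call was lost without LD PMN-MDSC 002 (0.0788) or Ctrl PMN-MDSC 001 or 003 (0.0781 and 0.0621). Of 13 inhibitors tested none was called in M-MDSC by limma or edgeR and 1 by DESeq2 (2 had an unadjusted limma p under 0.05), while in PMN-MDSC Ptpn11, the phosphatase SHP2, rose by 0.39 and Socs7 fell by 0.99 on the log2 scale (limma adjusted p = 0.00656 and 0.00775). Over all genes tested, limma called 3.01% in M-MDSC and 15.7% in PMN-MDSC, and the counts of both lists lie close to those shares. Between populations Stat4 was 11.0-fold lower in M-MDSC of LD mice and 10.3-fold lower in M-MDSC of Ctrl mice, and the phosphatase gene Ptpn6 2.49-fold and 2.75-fold lower.

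Each of 18 genes known to respond to STAT3 or IL-10 was tested on its own, and no test of the list was run. In PMN-MDSC 5 of the 18 fell in LD mice and none rose, where 8.51% of all genes fell and 15.7% were called in either direction, with a list median of -0.32 beside -0.05 for all genes. Arid5a, an RNA-binding protein gene, averaged 3371.5 ± 80.5 in LD PMN-MDSC and 6456 ± 122 in Ctrl PMN-MDSC (log2 -0.94; limma adjusted p = 0.000105). Sbno2, an IL-10 inducible corepressor in macrophages, averaged 10151 ± 942 in LD PMN-MDSC and 16478 ± 513 in Ctrl PMN-MDSC (log2 -0.70; limma adjusted p = 0.000367). The survival gene Mcl1, the AP-1 gene Junb and the mRNA decay gene Zfp36 fell by 0.56, 0.61 and 0.51 on the log2 scale (limma adjusted p = 0.00252, 0.00493 and 0.00532). Without both LD libraries numbered 001 the count was 8 of 18, all lower, where 22.1% of all genes were called in either direction.

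In M-MDSC 2 of these 18 genes rose and 1 fell, where 2.54% of all genes rose and 3.01% were called in either direction. Il1rn, the IL-1 receptor antagonist, averaged 269.8 ± 28.1 in LD M-MDSC and 118 ± 6.94 in Ctrl M-MDSC (log2 1.18; limma adjusted p = 0.000297), and its change exceeded that in PMN-MDSC by 0.95 (limma adjusted p = 0.0193). That difference was not called without Ctrl M-MDSC 001 (0.0513) or Ctrl PMN-MDSC 002 (0.0548). Cebpb, a myeloid transcription factor, rose by 0.41 (limma adjusted p = 0.0357) and Arid5a fell by 0.45 (limma adjusted p = 0.0287). The Cebpb call was lost without LD M-MDSC 002 or 003 (0.124 and 0.108), Ctrl M-MDSC 001 or 003 (0.14 and 0.151) or any Ctrl PMN-MDSC library (0.0512, 0.0554 and 0.0518). The Arid5a call was lost without LD M-MDSC 001 or 003 (0.0838 and 0.104), Ctrl M-MDSC 001 or 003 (0.121 and 0.144) or Ctrl PMN-MDSC 002 (0.0501). The summed neutrophil markers were higher in the same LD libraries of M-MDSC, as given above, with 3 of the 7 genes called higher (S100a8, S100a9 and Retnlg) and Mmp8 called lower, at 532 ± 54.9 in LD M-MDSC and 999.6 ± 197 in Ctrl M-MDSC (SD, n = 3 each). The macrophage sum was higher in those libraries too. Il1rn was 18.3-fold lower in M-MDSC than in PMN-MDSC of LD mice (limma adjusted p = 4.28e-12); the part of neutrophil or macrophage RNA in its rise was not tested.

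**Figure D5:**
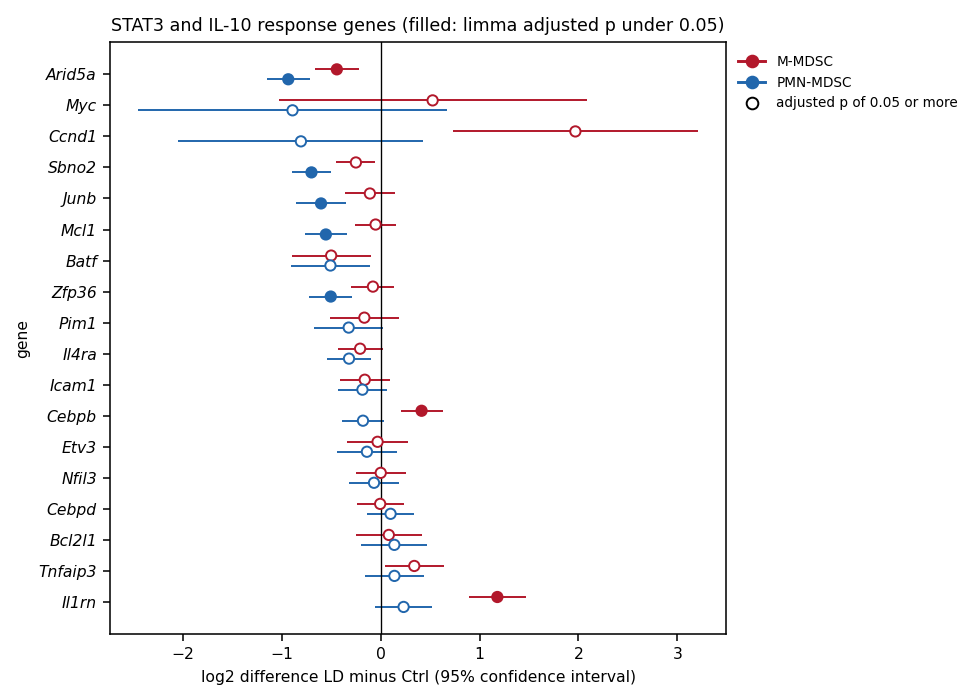
LD minus Ctrl differences of the 18 STAT3 and IL-10 response genes (log2, limma, points with 95% confidence intervals) in M-MDSC (red) and PMN-MDSC (blue), ordered by the PMN-MDSC value; filled points have an adjusted p under 0.05. The 5 filled blue points lie between -0.94 and -0.51, and the filled red points are Il1rn and Cebpb to the right of 0 and Arid5a at -0.45.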

How the data were processed

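Total RNA of 12 libraries was sequenced after depletion of ribosomal RNA, per the labels' protocols; whether strand was kept is not given there. The authors deposited 1 table of normalized counts, a signal in which reads are divided by 1 size factor per library. All values were whole multiples of 1 read (100% within 0.001), so whole reads were recovered from the deposited signal. Per the submitters' processing notes, STAR 2.5.3a, HTSeq 0.6.1, DESeq2 and the build mm10 were used, without their roles.

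Differences were fitted to log2(normalized count + 1) by limma 3.58.1 (R 4.3.3) for 11122 genes with a mean of at least 10, with a mean per group, a trended prior and 8 residual degrees of freedom pooled over the 4 groups. Two-sided p-values were adjusted by the Benjamini-Hochberg method over all genes tested, with a threshold of 0.05. The 1 added before the log understates changes of low genes. Count tests on the recovered reads (edgeR 4.0.16 quasi-likelihood and DESeq2 1.42.0) were alternatives; they called 440 and 723 genes between LD and Ctrl M-MDSC, and 1742 and 2168 in PMN-MDSC. The other alternatives were pseudocounts of 0.5 and 8, a minimum mean of 50 or none, TMM and upper-quartile scaling, a replicate block, the 2 compared groups alone, each library left out, and both LD libraries numbered 001 left out. Levels per kilobase use merged exons of the GENCODE annotation of the same build. Ratios and figures were made in Python 3.11.15 (pandas 2.3.3, numpy 2.4.6, matplotlib 3.10.9). As a check of the code, the fits were run on simulated counts with the same dispersion for every gene and library. That run does not cover libraries that stand apart, such as the LD libraries numbered 001.

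The 10 genes and the lists were chosen with earlier results of these data known. From each list the text names up to 4 called genes with the smallest adjusted p; Zfp36, Icam1, Il6, Il10, Il11 and Csf3, and Il10rb in LD mice, were named after their values were seen. Reads carry no molecular identifiers, so counts are not independent molecules. Gene positions and promoters are RefSeq, GRCm38.p6.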

Additional observations from a re-analysis of the deposited data

Results flagged for a closer look

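The change with LD treatment differed between the populations, by the interaction term of the limma fit, for 2 of the 10 genes, where 2.25% of all genes were called. Il10ra changed by 0.00 in M-MDSC and -0.81 in PMN-MDSC on the log2 scale (LD minus Ctrl), a difference of 0.81 ± 0.20 (SE; limma adjusted p = 0.0466); all 3 LD libraries of PMN-MDSC lay under all 3 Ctrl libraries, and the M-MDSC libraries overlapped. Socs3 changed by -0.05 in M-MDSC and -1.38 in PMN-MDSC, a difference of 1.33 ± 0.32 (SE; limma adjusted p = 0.0482), with the same arrangement of libraries. The adjusted p over the 12 fits that each left out 1 library ran from 0.00858 to 0.121 for Il10ra and from 0.00356 to 0.121 for Socs3, and the call was lost in 8 of these fits for Il10ra and in 10 for Socs3. With no minimum level both calls were lost (0.0876 for Il10ra and 0.0896 for Socs3), and that of Socs3 also with a replicate block (0.0533), with edgeR (0.0515) and with a pseudocount of 0.5 (0.0509).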

How the results depend on the processing

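The labels do not say whether same-numbered libraries share animals, so the numbers were not used as pairs in the main fit. The correlation of same-numbered deviations from the group means was 0.208, 0.125 and 0.0675 between LD M-MDSC and LD PMN-MDSC, where each library correlated best with its own number, and -0.0368, 0.0542 and 0.135 between the Ctrl groups. These correlations do not settle whether same-numbered libraries are pairs. With a replicate block, 1 of the 10 genes kept a call for the difference of the treatment changes, and Il6st gained one in PMN-MDSC (adjusted p = 0.0463). The number of the 10 genes called between LD and Ctrl M-MDSC, 1 as reported, was 0 with no minimum level and 0 without both LD libraries numbered 001, and 0 to 1 over the fits leaving out 1 library. In PMN-MDSC it was 2 as reported, 4 with DESeq2 and 2 to 3 over those fits. For the difference of changes it was 2 as reported, 1 with a pseudocount of 0.5, 1 with edgeR, 0 with no minimum level and 0 to 2 over those fits. Between populations it was 10 in each fit leaving out 1 library. Over all genes, the difference had 250 calls as reported, 125 with no minimum level, 699 with DESeq2, 773 without both libraries numbered 001 and 113 to 832 leaving out 1 library; M-MDSC had 335 as reported, 723 with DESeq2 and 192 to 549 leaving out 1 library; PMN-MDSC had 1745 as reported and 890 to 2162. Of the calls for the difference, 52.4% were higher as reported, 64.6% with TMM and 66.9% with edgeR; for M-MDSC against PMN-MDSC in LD mice 51.8% were higher as reported and 62% with upper-quartile scaling.

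Values that changed sign were not called as reported, apart from Il6ra between populations, which read 0.0122 in LD mice and 0.00735 in Ctrl mice with upper-quartile scaling. Jak2 in M-MDSC read 0.00902 with TMM, 0.00829 with edgeR and 0.00630 without both libraries numbered 001, where Socs3 in M-MDSC read 0.144, Jak2 in PMN-MDSC 0.0369, and the differences of changes -0.0103 for Jak1 and -0.0306 for Jak2. The difference of changes for Il6ra read 0.0368 with TMM, 0.00486 with upper-quartile scaling and 0.0405 with edgeR, and that of Bcl3 0.00561 with TMM and 0.0523 with edgeR. Leaving out 1 library, M-MDSC values ran from -0.0795 to 0.166 for Il10ra, -0.0569 to 0.00630 for Jak2, -0.252 to 0.144 for Socs3 and -0.437 to 0.0330 for Bcl3; Jak2 in PMN-MDSC ran from -0.0772 to 0.0369; and differences of changes ran from -0.0817 to 0.0439 for Il6ra, -0.0192 to 0.0725 for Jak1, -0.0545 to 0.0596 for Jak2 and -0.244 to 0.227 for Bcl3. The Il10ra and Socs3 calls in PMN-MDSC held under every alternative run. The causes were not tested.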
